A study of Mus musculus with 2 samples.

Results

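The matrix metalloproteinases (MMPs) and their tissue inhibitors (TIMPs) were examined in CD34-positive tumour epithelial cells of mouse skin. The members were the 7 protease genes Mmp2, Mmp3, Mmp9, Mmp10, Mmp11, Mmp13 and Mmp14 and the 3 inhibitor genes Timp1, Timp2 and Timp3. They were taken by name, and every probe set that the platform annotation gives to exactly 1 of them was kept, which gave 22 probe sets of 34958 and 10 genes of 18194. The study compared 2 genotypes with 1 Affymetrix array each, called here the wild-type array and, after its label, the VEGF array. The groups were a wild-type mouse and a K14CreER:Rosa-VEGF-164 mouse, in which Cre driven by the keratin 14 promoter, active in basal epidermis, is meant to switch on a VEGF-164 transgene. CreER is a ligand-dependent Cre, and the inducing treatment is not given in the sources used here, nor is the number of mice or tumours behind each array. Mice of both genotypes had received the carcinogen DMBA at postnatal days 23, 25 and 27, the tumour promoter TPA repeatedly over several weeks, and DMBA again at 7 weeks of age. Living cells were sorted with antibodies to CD34, α6-integrin and Epcam, and with antibodies to the blood cell, endothelial and fibroblast antigens CD45, CD31 and CD140a that carried one colour, per the labels.

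MMPs are zinc proteases that cleave extracellular matrix and cell surface proteins. Most are secreted as inactive precursors and become active once the propeptide is removed, by plasmin, by furin-like convertases or by another MMP. TIMPs bind active MMPs tightly and block them, and TIMP2 also takes part in the activation of MMP2 by the membrane protease MMP14. In skin tumours MMPs are made both by epithelial cells and by stromal and immune cells, and the stromelysin and collagenase genes are textbook targets of the transcription factor AP-1, which phorbol esters such as TPA activate.

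Of the 10 members, 5 were lower on the VEGF array by 2-fold or more (Mmp2, Mmp3, Mmp10, Mmp13 and Timp2), 1 was higher by 2-fold or more (Timp1), 3 were within 2-fold (Mmp9, Mmp14 and Timp3), and Mmp11 was not above background on either array. Of the 12195 genes that gave a fold or a bound, 8.54% were lower and 3.87% higher by that margin. Among the 4065 of them in the highest tertile of signal, 3.39% were lower and 2.85% higher, and in the lowest tertile 18.1% and 4.18%. After quantile normalization the shares over all genes were 4.73% and 4.94%, with the same 6 member calls. The median log2 ratio was -1.19 over the 9 members above background and -0.04 over all genes. Every ratio divides the VEGF array by the wild-type array. The members had been listed with earlier results of these arrays known, so the counts describe this list and show nothing particular to it.

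With a single array per genotype, replicate error and a test of the genotypes are not available. What the data hold is how far several probe sets of a gene disagree. The SD of 1 probe set's log2 ratio, so estimated, was 0.51 for dim genes (lowest tertile of signal), 0.44 for the middle tertile and 0.32 for bright genes. It does not cover the spread between mice, tumours or sorts. Background was set by 80 probe sets of olfactory and vomeronasal receptors, genes assumed here to be largely silent in these cells. Their 90th percentile was taken, which was a signal of 19.9 for wild type and 11.3 for VEGF. After anti-log both arrays had a trimmed mean signal of 100.04, while their medians were 22.6 and 17.3. Lower genes outnumbered higher ones as deposited, with higher genes making up 31.2% of those at least 2-fold apart, but 51.1% after quantile normalization. Vegfa, the gene of the transgene's product, had signals of 804 and 397 by its brighter probe set and 302 and 127 by its other. Both were at least 2-fold lower on the VEGF array, with log2 ratios of -1.02 and -1.26. Whether a Vegfa probe set reads the transgene is not known here, so the genotype label is not checked by it, and all directions follow the label.

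The promoters of 4 members are shown because 3 of them, Mmp13, Mmp3 and Mmp10, belong to 1 gene cluster and were the lowest of the members, while Timp1 was the only member at least 2-fold higher. Each line gives the 250 bases before the RefSeq transcription start in GRCm38.p6, read 5′ to 3′ on the plus strand. They lie at chr9:7272264-7272513 for Mmp13, chr9:7445572-7445821 for Mmp3, chr9:7502092-7502341 for Mmp10 and chrX:20869916-20870165 for Timp1. Capitals mark the AP-1 recognition sequence TGAGTCA, searched on both strands, so that it can also read TGACTCA.
Mmp13: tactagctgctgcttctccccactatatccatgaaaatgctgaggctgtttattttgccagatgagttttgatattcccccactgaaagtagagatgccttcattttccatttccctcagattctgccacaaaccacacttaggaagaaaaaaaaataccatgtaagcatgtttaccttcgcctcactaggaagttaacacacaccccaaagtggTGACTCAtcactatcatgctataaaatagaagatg
Mmp3: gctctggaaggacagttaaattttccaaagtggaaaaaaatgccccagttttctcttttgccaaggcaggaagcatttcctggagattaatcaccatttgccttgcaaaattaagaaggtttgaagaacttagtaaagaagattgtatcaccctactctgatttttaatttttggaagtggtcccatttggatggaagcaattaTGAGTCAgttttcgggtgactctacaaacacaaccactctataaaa
Mmp10: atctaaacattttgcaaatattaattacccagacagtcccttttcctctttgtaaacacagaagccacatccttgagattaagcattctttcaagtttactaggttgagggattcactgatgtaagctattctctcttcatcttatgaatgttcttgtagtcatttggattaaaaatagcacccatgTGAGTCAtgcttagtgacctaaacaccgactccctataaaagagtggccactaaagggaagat
Timp1: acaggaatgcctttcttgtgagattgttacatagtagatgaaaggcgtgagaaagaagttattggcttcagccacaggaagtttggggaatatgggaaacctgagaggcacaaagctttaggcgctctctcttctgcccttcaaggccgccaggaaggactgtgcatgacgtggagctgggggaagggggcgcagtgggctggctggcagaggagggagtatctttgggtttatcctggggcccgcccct

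Each of the 3 protease promoters held 1 match to TGAGTCA close to the start. The match began 35 bases before the start in Mmp13, 46 bases before it in Mmp3 and 63 bases before it in Mmp10, and Timp1 had none in this window. RefSeq promoters were matched for 8 of the 10 members, so Mmp2, which was lower, and Mmp9, which was within 2-fold, could not be searched. The sequence was found in Mmp3, Mmp10 and Mmp13 and not in the windows of Mmp11, Mmp14, Timp1, Timp2 and Timp3. Of all 32851 windows of this length, 4.46% held it. Among the 9836 genes with a fold or bound and a promoter, the share was 4.46%, and among the 798 of them at least 2-fold lower it was 6.02%. The same 3 members held TATAAA, the TATA box sequence, searched on the strand shown and present in 7.59% of all windows. AGGAAG, a binding sequence of Ets factors, was searched on both strands and was present in 29.5% of all windows. It occurred in 5 members, Mmp3 and Mmp13, Mmp14, Timp1 and Timp3, with 2 matches each in Mmp13 and Timp1. None of these 3 searched sequences overlaps another in the 4 windows printed. A match is a string of letters in the window, and binding was not measured.

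Mmp3 encodes stromelysin-1, a broad matrix protease that also activates other MMP precursors. Its only probe set had a signal of 1397 for wild type and 185 on the VEGF array. This is 7.57-fold lower, a log2 ratio of -2.92, about which probe sets at this signal vary with an SD of 0.32. Only 8 of the 12195 genes had a lower ratio, 0.066% of them. Mmp10, which encodes the closely related stromelysin-2, had signals of 519 and 106, 4.91-fold lower (log2 ratio -2.30), and 44 genes had a lower ratio. Mmp13 encodes collagenase-3, which cuts fibrillar collagen. It had signals of 2555 and 623, 4.10-fold lower (log2 ratio -2.04), and 75 genes had a lower ratio. Both values of each of these 3 genes stood well above background, so none of the 3 folds is set by the floor. Each of them rests on a single probe set, so no other probe set checks it.

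Mmp2 encodes gelatinase A, which degrades denatured collagen and the type IV collagen of basement membranes. Its brighter probe set had signals of 180 and 78.9, 2.28-fold lower on the VEGF array (log2 ratio -1.19). The other read 130 and 49.3, 2.65-fold lower (-1.40). The 2 probe sets therefore went the same way and differed by less than the SD of 0.44 at this signal. Mmp9 encodes gelatinase B, the other gelatinase. Its signals were 352 and 415 by the brighter probe set (log2 ratio 0.24) and 137 and 136 by the other (-0.01), so the arrays lay within the spread between probe sets.

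Mmp14 encodes a membrane-anchored MMP that cleaves collagen at the cell surface and activates the MMP2 precursor. Its 3 probe sets gave wild-type and VEGF signals of 451 and 424, 215 and 221, and 60.8 and 60.6, with log2 ratios of -0.09, 0.04 and -0.01. The arrays were nearly equal by all 3, each ratio being smaller than the SD between probe sets. Mmp11 encodes stromelysin-3, an MMP best known from stromal fibroblasts. Its only probe set had signals of 16.5 and 10.9, below the background of each array, and gets no fold.

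**Figure D1:**
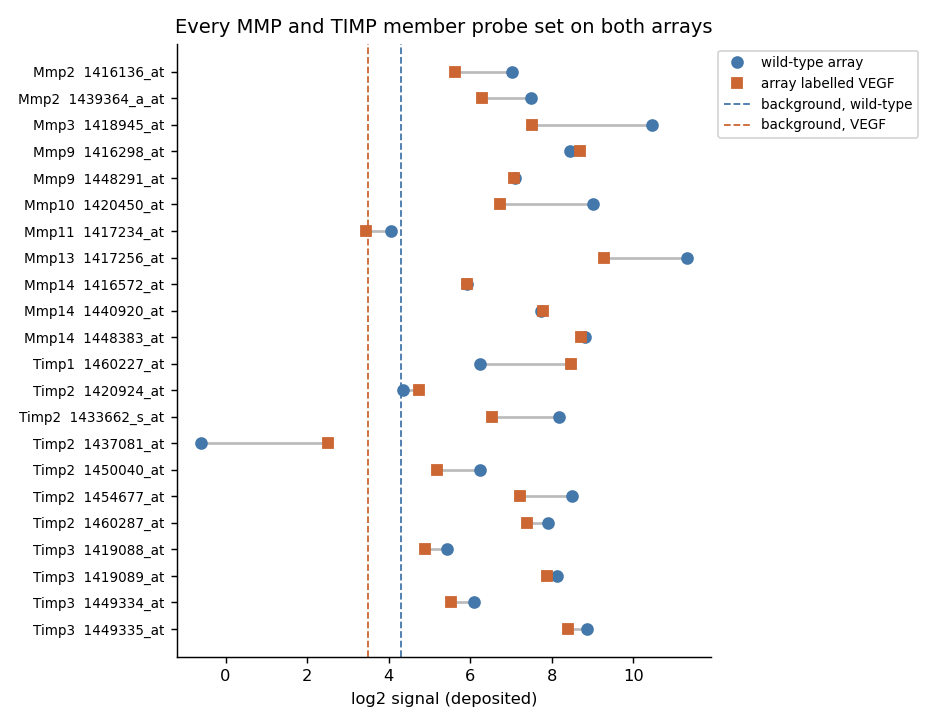
Deposited log2 signal of each of the 22 member probe sets on the wild-type array (circles) and the VEGF array (squares), joined by a line, with each array's background as a dashed line. The lines of Mmp3, Mmp10 and Mmp13 run far to the left from the wild-type value, that of Timp1 runs to the right, and those of Mmp9 and Mmp14 are short.

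Timp1 encodes an inhibitor of most secreted MMPs and is inducible by growth factors and cytokines. Its only probe set had signals of 75.5 for wild type and 355 on the VEGF array. This is 4.70-fold higher, a log2 ratio of 2.23 against an SD of 0.44 between probe sets at this signal, and 49 genes had a higher ratio. The ratio of Timp1 exceeded that of Mmp3 by 5.15, that of Mmp10 by 4.53, that of Mmp13 by 4.27 and that of Mmp2 by 3.42 on the log2 scale. A scale factor common to all probe sets of an array cancels in these differences.

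Timp2 encodes the inhibitor that bridges MMP14 and the MMP2 precursor. Its brightest probe set had signals of 359 and 149, 2.40-fold lower on the VEGF array (log2 ratio -1.27). Of the other 5 probe sets, 3 that lay above background on both arrays were lower as well, with 290 and 93.2 (-1.64), 75.7 and 36.3 (-1.06) and 239 and 168 (-0.51). A dim probe set went the other way with 20.3 and 26.9 (0.41), its wild-type signal just above the background of 19.9. The remaining one, at 0.66 and 5.68, was below background on both arrays. The Timp2 probe sets above background thus went lower in 4 of 5 cases and spanned 2.04 on the log2 scale, the widest disagreement of any member. Timp3 encodes an inhibitor that stays bound to the matrix and also blocks ADAM proteases. Its 4 probe sets all read lower on the VEGF array, with signals of 469 and 335, 282 and 236, 68.2 and 46.6, and 43.2 and 29.8. Their log2 ratios were -0.48, -0.26, -0.55 and -0.54, none 2-fold. The first exceeded the SD of 0.32 between probe sets at its signal, the second did not, and the last 2 were just above their SD of 0.51.

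Counted by probe set, 8 of the 20 member probe sets above background were lower and 1 was higher by 2-fold or more, against 10.3% and 3.53% of 21521 probe sets. The 8 came from Mmp2 and Timp2, with 2 and 3 probe sets, and from Mmp3, Mmp10 and Mmp13 with 1 each. Probe sets of a gene read the same RNA and are not replicates of a genotype.

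**Figure D2:**
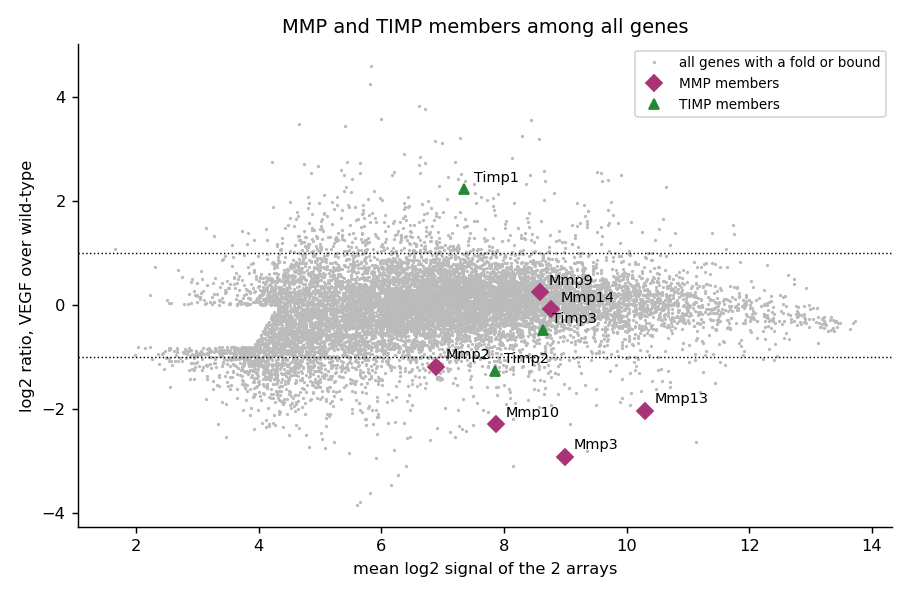
Log2 ratio (VEGF array over wild-type array) against mean log2 signal for the 12195 genes with a fold or bound, with MMP members as diamonds, TIMP members as triangles and dotted lines at 2-fold. Mmp3, Mmp10 and Mmp13 lie below nearly all genes of similar signal, Timp1 lies near the upper edge, and Mmp9 and Mmp14 lie in the middle of the cloud.

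Mmp3, Mmp10 and Mmp13 belong to a cluster of 10 MMP genes that lie side by side on chromosome 9 in the RefSeq gene order of GRCm38.p6. Of the 9 with a probe set, 5 had a fold, and each of the 5 was lower on the VEGF array, 4 of them by at least 2-fold. Besides the 3 members these were Mmp12, the macrophage metalloelastase gene, with signals of 46.0 and 17.7 (2.60-fold), and Mmp1a, a collagenase gene, with 31.8 and 16.5 (log2 ratio -0.94). Both were dim, so their ratios carry an SD of 0.51. In the lowest tertile of signal, to which they belong, 66.0% of genes had a ratio below 0 and 18.1% were lower by 2-fold or more. Over all genes 8.54% were lower by that margin. The 3 members were already known as the lowest of their list when the cluster was read. Mmp1b, Mmp8, Mmp20 and Mmp7, respectively a collagenase relative, neutrophil collagenase, enamelysin and matrilysin, had no fold. Of these, Mmp1b reached 11.6 on the VEGF array, barely over its background of 11.3, and 7.09 on the wild-type array.

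The 3 nearest measured protein-coding genes on each side of the cluster were looked up after the cluster's values had been seen. On one side, Dcun1d5 and Dync2h1 had log2 ratios of 0.24 and 0.05, and Ddi1 was below background. On the other, Tmem123, Birc2 and Birc3 had ratios of -0.30, -0.47 and -0.33. Of the 6 flanking genes, 5 had a fold and none was 2-fold apart. Over all genes only 8.54% were lower and 3.87% higher by that margin, so the absence of a call does not set these genes apart. The cluster genes with a fold ran from -2.92 to -0.94. The cluster promoters held TGAGTCA in at least 1 RefSeq window for 7 of the 10 genes. These included Mmp1b and Mmp7, which had no fold, and Mmp12, which held it in the second of its RefSeq windows and not in the first. Of the 9836 genes with a fold or bound and a promoter, 4.46% held it. The windows of Mmp1a and Mmp1b are alike over long stretches, so the 7 genes are not independent cases.

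**Figure D3:**
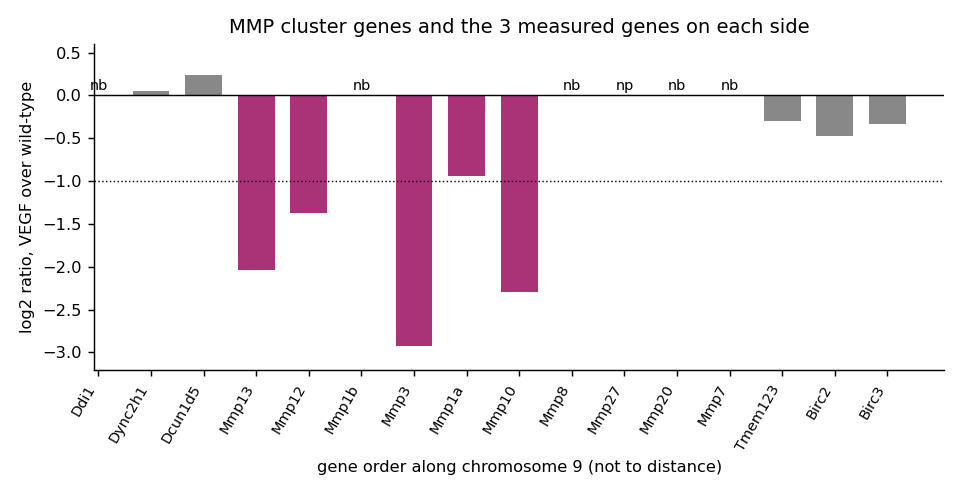
Log2 ratio of each gene of the chromosome 9 MMP cluster (dark bars) and of the 3 measured genes on each side (grey bars), in gene order and not to distance, with a dotted line at 2-fold lower. The letters nb mark genes with no ratio because of background and np a gene with no probe set, and every cluster bar points down while no grey bar reaches the dotted line.

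Beyond the members, 12 of 17 other MMP and TIMP genes had a probe set of their own, and 4 had a fold or bound, all lower on the VEGF array. They were Mmp12, Mmp1a, Mmp17 and Mmp23, all in the lowest tertile of signal, where 66.0% of 4065 genes had a ratio below 0 and 18.1% were lower by 2-fold or more. Mmp17, a membrane-anchored MMP gene, was above background on the wild-type array alone, with 26.9 against 2.21, which is at least 2.38-fold lower. With 1 floor common to both arrays that bound falls under 2-fold (log2 -0.44). Mmp23 had signals of 29.2 and 18.9 (log2 ratio -0.63), and its other probe set was below background. Mmp16, Mmp19, Mmp24 and Timp4 had no probe set with a fold. Timp1 lies inside the Syn1 gene, Timp3 inside Syn3 and Timp4 inside Syn2, the synapsin genes. Syn1 was below background on both arrays (4.93 and 3.91), and Syn3 had no fold (14.2 and 13.1). Syn2 was 2.85-fold lower (33.1 and 11.6, with -0.74 by its other probe set) and its VEGF signal barely passed background; with 1 floor common to both arrays only a bound of -0.74 on the log2 scale remains.

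ADAM and ADAMTS proteases, relatives with a metalloprotease domain that shed surface proteins or cut proteoglycans, were mostly within 2-fold. Of 12 measured, 10 had a fold, and 1 passed 2-fold downward and 0 upward (median log2 ratio -0.06). By that margin 8.54% of all genes were lower and 3.87% higher, shares that apply to the lists that follow too. Adamts9 was 2.58-fold lower (91.6 and 35.5, with -0.91 by its other probe set). Adamts1 had signals of 750 and 1483 (0.98), just under 2-fold higher. Adamts4 (0.47) and Adamts10 (-0.40) were dim. Adam10, a main sheddase with the highest signal of the list, had 1355 and 1174 (-0.21, and 0.36 by its other probe set).

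The list of plasminogen activation and furin-like convertases had 9 of 10 measured genes with a fold, with a median of 0.14, and 1 passed 2-fold upward and 0 downward. Serpinb2, which encodes plasminogen activator inhibitor 2, was 4.83-fold higher with signals of 724 and 3495. Plaur, the urokinase receptor gene, had 145 and 289 (0.99). Plau, the urokinase gene itself, had 235 and 244 (0.06, and 0.49 by its other probe set). Of the convertases, Pcsk6 had a ratio of 0.92, Pcsk5 -0.77 (-1.48 by its other probe set) and Furin -0.29. Plg, the plasminogen gene, was below background on both arrays.

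Genes whose products bind, hold or clear MMPs and TIMPs had a median of -0.29, and 2 of 7 passed 2-fold downward and 0 upward. Lcn2, whose product lipocalin-2 binds MMP9, was 4.95-fold lower with signals of 399 and 80.7, although Mmp9 itself was nearly equal. Tfpi2, a protease inhibitor gene, was 2.19-fold lower but at 12.1 close to background on the VEGF array, and under 2-fold in 5 of 9 other settings (log2 values from -0.74 after quantile normalization to -0.22 with the offset of 50). Thbs1, the thrombospondin-1 gene, had a ratio of -0.50, with -1.88 by its other probe set, and the endocytic receptor gene Lrp1 had 0.35, with -0.43 by its other. Cd44, which encodes a docking receptor of MMP9 and had the highest signal of the list, had 3713 and 4224. Reck, a membrane inhibitor gene of MMPs, got no fold, at 17.7 and 12.1.

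Genes known to induce MMP transcription, AP-1 subunits, Ets and Runx factors and cytokines, were below 0 in 13 of 17 cases with a median of -0.50, while 2 passed 2-fold downward and 0 upward. Over all genes 6448 of 12195 ratios were below 0, and 8.54% were lower and 3.87% higher by 2-fold or more. The count of 2 in 17 is near that share of lower genes. These 2 genes were the AP-1 subunit genes Jund, 3.21-fold lower with 4218 and 1316, and Fosl2, 2.05-fold lower with 625 and 305. Fosl2 had -0.41 by its other probe set and was under 2-fold in 3 of 10 other settings. Jun had 6862 and 3830 (-0.84, and -1.63 by its other), and Fos, with the highest signal of the list, 9373 and 6942 (-0.43). Ets1, an Ets factor gene, went the other way with 160 and 298 (0.90), its other probe sets lying between -0.06 and 1.04. These genes respond to tissue dissociation as well, and their part in the MMP values was not tested.

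Matrix and surface substrates of MMPs had a median of 0.04, and 1 of 17 passed 2-fold upward and 0 downward. Tnc, the tenascin-C gene, was 2.65-fold higher by its brightest probe set (451 and 1194) but equal by the other (0.00). Col7a1, which encodes the anchoring fibril collagen, had 560 and 298 (-0.91). The basement membrane collagen genes Col4a5 and Col4a6 had -0.85 and -0.65, and Col4a5 had -1.05 by its other probe set, past 2-fold. Sdc1, the syndecan-1 gene, had the highest signal of the list, with 5992 and 4825.

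**Figure D4:**
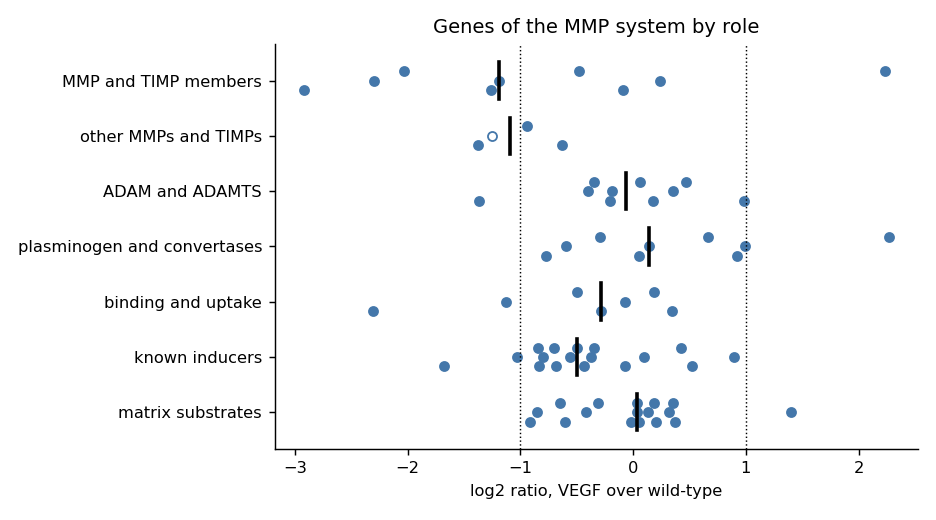
Log2 ratio (VEGF array over wild-type array) of each gene with a fold (filled) or bound (open) in the member list and in 6 lists of the MMP system, with the list median as a vertical bar and dotted lines at 2-fold. The member median lies at -1.19, that of the inducers at -0.50 and those of the ADAM and substrate lists close to 0, while Timp1 and Serpinb2 stand apart on the right.

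Since stromal and immune cells also make MMPs and TIMPs, markers of such cells were read on the same arrays. Background was 19.9 for wild type and 11.3 on the VEGF array, so a gene can be counted above background there at a lower signal. Epithelial genes were strong on both, with 7 of 7 above background, a summed signal of 28348 for wild type and 26115 on the VEGF array, and Krt14, a keratin of basal epidermis, at 8990 and 8571. None of the 7 was 2-fold apart by its brightest probe set. Among the genes of sort antigens, Itga6 was 1.63-fold lower and Cd34 1.75-fold higher on the VEGF array. Epcam had a log2 ratio of 0.25, but -1.16 by its other probe set. Trp63, the basal transcription factor gene, was 1.71-fold lower, its other probe sets lying between -2.52 and -0.37 on the log2 scale. The fibroblast list had 9 of 10 genes above background for wild type and 10 of 10 on the VEGF array, with summed signals of 2829 and 3513. Within it Col1a2 and Col3a1, fibrillar collagen genes, were 2.91- and 2.52-fold higher on the VEGF array, Thy1 was 2.31-fold lower, and Postn, with 1595 and 798, just under 2-fold lower. Pdgfra, the gene of the CD140a antigen of the sort, had signals of 9.86, below background, and 34.7. The pericyte and smooth muscle list had 4 of 5 above background on each array, though not the same 4, with sums of 1976 and 999. Acta2, the smooth muscle actin gene, was 2.15-fold lower. Des was above background on the wild-type array alone, with 32.5 against 5.39, at least 2.87-fold lower. Myh11, at 18.1 and 19.2, was above background on the VEGF array alone and got no fold. Bulk signals cannot tell fewer cells of a type from less RNA per cell.

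Macrophage markers had 5 of 7 above background on each array, with summed signals of 247 and 282, and went both ways. Csf1r had a log2 ratio of -0.82 (-1.10 by its other probe set) and Adgre1 was at least 1.97-fold lower, while Cd68 had 0.67 and Cd14 0.62. Ptprc, the CD45 gene, had signals of 14.4 and 17.3, above background on the VEGF array alone, and no fold. Itgam, at 4.84 and 4.20, was below background on both arrays. Endothelial markers had 3 of 7 and 5 of 7, with sums of 132 and 153. Pecam1, the gene of the CD31 antigen of the sort, had signals of 3.07, below background, and 22.0, at least 1.11-fold higher. The other endothelial genes with a ratio went both ways. Cdh5 and Esam had log2 ratios of -0.70 and -0.67, while Kdr had 0.47 and Emcn was at least 1.37-fold higher. Neutrophil markers had 1 of 6 and 4 of 6, with sums of 99.3 and 420, of which Ltf, also made by epithelia, supplied 375 on the VEGF array. Mpo, the gene above background for wild type, was lower on the VEGF array, with 23.8 and 13.4. Csf3r (17.5 and 13.5) and Ngp (18.1 and 13.2) also read lower there and passed only that array's lower background. Camp and Elane, granule genes of neutrophils, were below background on both arrays. T cell markers had 1 of 5 on each array, with sums of 71.9 and 31.3. That gene was Cd8a, 2.69-fold lower with 59.6 and 22.2, while Cd3e and Cd3d were below background on both. Mast cell markers had 1 of 4 and 0 of 4, with sums of 47.3 and 24.2. Melanocyte markers had 2 of 4 and 3 of 4, with sums of 276 and 129, and Dct, a pigment enzyme gene, was 2.86-fold lower on the VEGF array. The added gene on that array was Mlana, whose signal was lower there, with 18.2 and 15.3. No marker value was exactly 0, and the part of other cells in the MMP and TIMP ratios was not tested.

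The member ratios were recomputed under 10 other settings. Mmp3, Mmp10 and Mmp13 were at least 2-fold lower and Timp1 at least 2-fold higher in all 10. Their log2 ratios ranged from -2.97 to -2.31, -2.34 to -1.59, -2.05 to -1.59 and 2.04 to 2.27. Mmp2 and Timp2 were at least 2-fold lower in 9 of 10, and with an offset of 50 added to the signals they had -0.58 and -0.73. That setting moved the median of all genes from -0.04 to 0.11 and left 0.456% of genes at least 2-fold lower, so ratios shift upward in it. Mmp14 is also above 0 there, at 0.27.

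**Figure D5:**
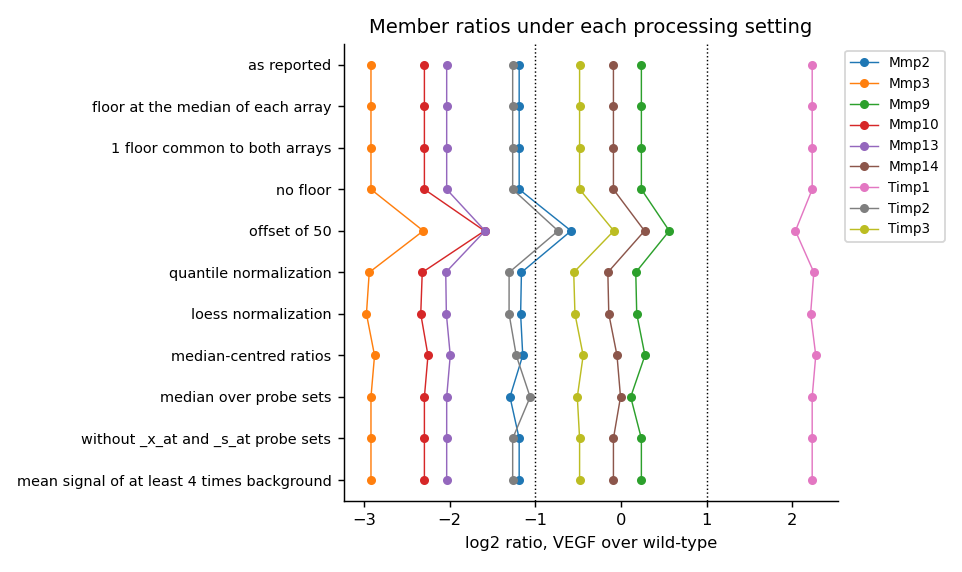
Log2 ratio (VEGF array over wild-type array) of the 9 members above background as reported and under 10 other processing settings, a line per gene, with dotted lines at 2-fold. The lines of Mmp3, Mmp10, Mmp13 and Timp1 stay outside the dotted lines throughout, and those of Mmp2 and Timp2 cross inside with the offset of 50.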

How the data were processed

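RNA (100 ng per sample, per the labels) was hybridised to 1 array per genotype. The deposited values are log2 signals of 45101 probe sets, made by the authors with MAS5, which summarises each probe set on its own array, per the submitters' processing notes; its version and target value are not stated in them. Detection calls and probe-level files were not used here. The platform annotation gave 1 gene for 34958 probe sets, several for 932 and none for 9211. Signals were anti-logged and floored at background on each array. Each gene was read by the brightest of its probe sets (mean of both log2 values). A gene above background on 1 array got a lower bound, if that array's signal also exceeded the other array's floor in the same direction; otherwise, and where both were below background, it got no fold. At least 2-fold was the size rule. Depth does not apply to arrays, and their number limits the precision. Members and lists were chosen with earlier results of these data known. Named genes were all members and their probe sets, other MMP and TIMP genes above background, and, per list, the 4 largest ratios and the gene of highest signal; Plau, Furin, Plg, Reck, the genes beside the cluster and single cell markers were picked after their values were seen. Promoters came from RefSeq (GRCm38.p6), and Mmp2 and Mmp9 were not matched. The scripts were run on simulated arrays with known changes; this checks the arithmetic and not the biology. Computations used Python 3.11.15, pandas 2.3.3 and statsmodels 0.14.6.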

Additional observations from a re-analysis of the deposited data

How the results depend on the processing

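No value has a test, so the settings only show how far ratios move. The 10 settings were the median of each array or 1 common level as floor, no floor, an offset of 50 after matching the medians, quantile, loess and median-centred scaling, the median over probe sets, dropping _x_at and _s_at probe sets, and requiring 4 times background in the mean signal. Across member genes, 82 of 90 recomputed ratios moved by less than the SD between probe sets and 8 by more, and no called member changed direction. With the offset of 50, 3 member genes and 3 member probe sets were at least 2-fold lower in place of 5 and 8, and the member median was -0.33; Mmp3, Mmp10 and Mmp13 were the 3 genes. With no floor, 2 member probe sets were at least 2-fold higher in place of 1, the added one being the Timp2 probe set below background on both arrays. Over the 7 other lists together, including the synapsin genes, 8 genes were at least 2-fold lower and 2 higher, beside 8.54% and 3.87% of all 12195 genes. The lower count was 12 with no floor, 10 with the median over probe sets, 9 without the _x_at and _s_at probe sets, 7 with centred ratios, 6 each with quantile and loess scaling, 5 with the median floor, 5 with the common floor, 2 with the offset and 3 with the signal filter. The higher count was 5 with the offset, 4 with centred ratios, 4 without the _x_at and _s_at probe sets, 3 each with no floor, quantile and loess scaling, 2 with the median floor, the common floor and the signal filter, and 1 with the median over probe sets. The shares over all genes moved with the settings too. The lower share ran from 0.456% with the offset to 15.2% with no floor, and the higher share from 2.83% to 9.21% in the same settings. The list counts therefore show nothing particular to these lists. No paired analysis was possible because each genotype has 1 array. The leave-one-out check does not apply for the same reason. Values near background limit Mmp11, Mmp12, Mmp1a, Mmp17 and Mmp23.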
